A study of Rattus norvegicus with 9 samples.

Results

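Heat shock proteins and chaperonins are the folding machinery of the cell, and they were followed here in cultured rat retinal ganglion cells made to express Set-β. Members were the genes whose symbol names a DnaJ protein of class A, B or C, a protein of the HSP10, HSP60, HSP70, HSP90, HSP110 or small heat shock families, a subunit of the chaperonin TRiC, or the transcription factors Hsf1 and Hsf2. The rule found 72 members among 18166 genes of the array that have a probe set, called a transcript cluster, with that gene as its only symbol. A gene with several clusters was read from the cluster of highest mean level. No difference between groups entered the rule. Hspa1a and Hspa1b, which share 1 cluster, and Hsp90aa1, Dnajb6 and Dnajc8, whose cluster carries a further symbol, were not analysed here.

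Retinal ganglion cells came from Sprague Dawley rats of postnatal day 4 and were purified by immunopanning. They were electroporated with mCherry, with wild-type Set-β or with a form labelled myr-Set-β, in every case together with the GFP plasmid pMAX-GFP, so that the mCherry controls carried GFP and the electroporation too. GFP-positive cells were sorted on the next day, with RNA collected on day 3 after transfection. Each group had 3 arrays, named mCherry, wt-SetB and myr-SetB below, and labelled as biological replicates 1 to 3. The labels do not say whether these came from separate preparations of cells, and p-values then reflect array-to-array spread, which may be technical. Set-β is a mainly nuclear protein known as an inhibitor of protein phosphatase 2A. The labels do not name the promoter of any construct, and construct expression was not checked here.

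Chaperones of the HSP70 family bind unfolded stretches of protein and release them with ATP. J proteins, which share the DnaJ domain, bring clients to HSP70 and start its ATP cycle, while HSP110 proteins exchange the nucleotide. HSP90 acts later on kinases, receptors and other clients. TRiC is a closed double ring that folds actin and tubulin, and HSP60 with its lid HSP10 does the like inside mitochondria. Hspa5 and Hsp90b1 serve the endoplasmic reticulum. Heat or misfolded protein in the cytosol activates Hsf1, which binds heat shock elements in promoters, and misfolded protein in the endoplasmic reticulum activates factors that bind the ER stress element. Neurons carry high levels of the constitutive HSP70, Hspa8, which among other tasks takes clathrin off synaptic vesicles together with J proteins.

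The promoters of the members were searched for these elements. RefSeq promoters of the assembly GRCr8, from 250 bases before to 50 bases after the start of the gene, were matched for 61 of the 72 members. A heat shock element was searched as 3 units of GAA and TTC taking turns with 2 free bases between them, on both strands, and was present in 0.798% of 33469 promoters. It lay in the promoters of 6 of the 61 members, with no match in the other windows. Of the 6, Hspd1 and Hspe1 share 1 stretch between their divergent starts. The ER stress element, CCAAT and CCACG with 9 free bases between, was present in 0.0657% of promoters on either strand and in 3 members. The stretches are printed 5′ to 3′ along the gene, with the element in capitals, for reference beside the values of these members.
Hspe1, chr9:64084250-64084291, the element from -65 to -48: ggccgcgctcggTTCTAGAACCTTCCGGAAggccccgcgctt
Hspa8, chr8:50080289-50080325, from -213 to -201: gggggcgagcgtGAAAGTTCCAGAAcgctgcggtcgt
Hspa8, chr8:50080447-50080483, from -55 to -43: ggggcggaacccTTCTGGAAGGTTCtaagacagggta
Hsph1, chr12:10427320-10427356, from -36 to -24: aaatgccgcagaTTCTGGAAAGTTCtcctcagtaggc
Dnaja1, chr5:60638413-60638425, from 10 to 22 after the start: GAACTTTCCAGAA
Cct4, chr14:101193082-101193094, from 26 to 38 after the start: TTCTGGAAGGTTC
Hspa5, chr3:38452961-38453003, the ER stress element from -43 to -25: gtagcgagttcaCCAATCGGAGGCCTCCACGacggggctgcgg
Dnajc3, chr15:102432522-102432564, from -133 to -115: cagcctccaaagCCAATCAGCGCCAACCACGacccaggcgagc
Hsp90b1, chr7:23012439-23012481, from -176 to -158: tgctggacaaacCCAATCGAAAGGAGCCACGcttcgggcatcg
Hsp90b1, chr7:23012335-23012377, from -72 to -54 and on the other strand: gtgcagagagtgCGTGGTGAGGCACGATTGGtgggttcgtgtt
These matches describe the letters of the windows and say nothing of binding in these cells.

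Values below are log2 of the deposited intensity, which was scaled to the median of each array, and every difference is a difference of group means on that scale. A cluster was tested when its mean over the 9 arrays reached the median of all cluster means, 6.65. By that filter 63 of the 72 members were tested, and 9 with means up to 6.51 were not. Tested members lay above the level of the 90th percentile of odorant receptor clusters, a gauge of background, on all 9 arrays for 26 members and on at least 1 array for every one of the 63. The first myr-SetB array stood apart. Its spread between the 10th and 90th percentile of intensity was 3.82 on the log2 scale, against 4.12 to 4.54 on the other 8 arrays, its odorant receptor median was the highest at 5.93, and it was the lowest of the 9 arrays for 42 of the 63 tested members and for 46.6% of all 10518 tested genes. All 14 markers of retinal ganglion cells passed the filter, with summed linear intensities of 10733 to 18379 on mCherry arrays, 6775 to 12133 on wt-SetB arrays and 7371 to 12690 on myr-SetB arrays. Markers of other cells passed it as well: 3 of 7 glial and progenitor markers on the array, with Vim among them and Gfap, Slc1a3, Rlbp1 and Sox9 below it, 8 of 10 of microglia, 3 of 4 endothelial, mural and fibroblast markers, 4 of 8 of amacrine and horizontal cells and 2 of 6 of photoreceptors and bipolar cells.

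Nearly all members had lower means in cells given wild-type Set-β than in cells given mCherry, and no member passed the test. The median difference over the 63 tested members was -0.50, against -0.29 over all tested genes. The mean was lower for 60 members, and for 8113 of all 10518 tested genes. Every wt-SetB array was below every mCherry array for 35 members, or 55.6%, against 34.7% of genes. At an unadjusted limma p under 0.05, 11 members were lower and none higher, against 8.72% of genes lower. The lowest adjusted p of a member was 0.447, and 0 of 18343 clusters passed an adjusted p of 0.05 by limma, a background of 0%. In bulk RNA, fewer cells of a type and less RNA per cell cannot be told apart. The sums of ganglion cell markers given above also ranged lower on the Set-β arrays, and their part in the result was not tested.

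In cells given myr-Set-β the members' median difference from mCherry was -0.52, against -0.26 over all tested genes. The mean was lower for 59 of 63 members, and for 7827 of 10518 genes. Counts of lower means in the lists below are to be read beside these 8113 and 7827 genes. At an unadjusted limma p under 0.05, 9 were lower, against 8.6% of genes, and again 0 members and 0% of clusters passed the adjusted threshold. Every myr-SetB array was below every mCherry array for 8 members, against 8.07% of genes. The arrays of the group differed widely. Relative to the mCherry mean, the median member stood at -1.05, -0.43 and 0.04 on the myr-SetB arrays 1, 2 and 3, and at -0.46, -0.40 and -0.56 on the wt-SetB arrays. Without the first myr-SetB array the median difference was -0.18, against -0.11 over all genes, and 2 members had an unadjusted limma p under 0.05, against 1.94% of genes. Since the fit shares 1 estimate of the spread, leaving out that array also took the count in the wt-SetB comparison from 11 to 29, against 21.6% of genes, with the same median difference. Both comparisons share the mCherry arrays, so their values are given side by side.

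The counts at an unadjusted limma p under 0.05 moved with nearly any array left out, and the share of all genes moved with them. For wt-SetB, 2 members were lower without mCherry replicate 1 (3% of genes), 15 without mCherry replicate 2 (15.2%) and 2 without mCherry replicate 3 (3.02%). The count was 4 without wt-SetB replicate 1 (5.32%), 1 without wt-SetB replicate 2 (3.94%) and 1 without wt-SetB replicate 3 (3.13%). It was 2 without myr-SetB replicate 2 (5.26%) and 19 without myr-SetB replicate 3 (16.4%). For myr-SetB, leaving out the mCherry replicates 1, 2 and 3 in turn gave 1, 14 and 3 members, against 2.2%, 15.1% and 3.56% of genes. Leaving out the wt-SetB replicates gave 6, 5 and 7, against 5.9%, 5.28% and 5.98%. The count was 4 without myr-SetB replicate 2 (4.15%) and 37 without myr-SetB replicate 3 (34.2%).

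**Figure D1:**
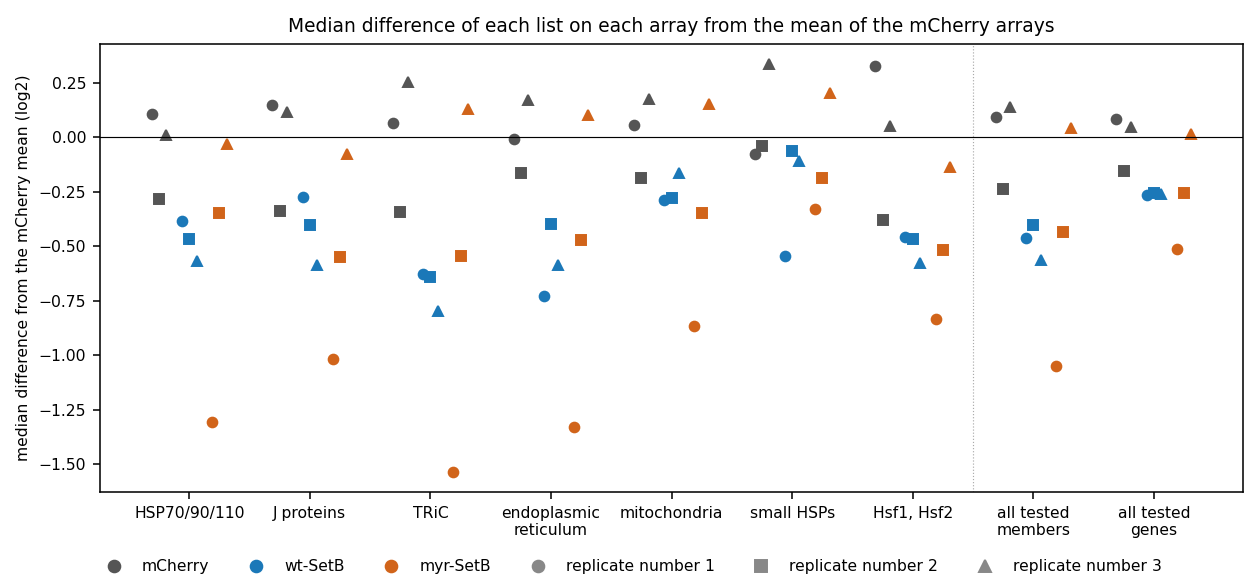
Median difference of the members of each list from the mean of the mCherry arrays (y axis, log2), for each of the 9 arrays; colour marks the group and symbol shape the replicate number. The 3 wt-SetB arrays lie at -0.63, -0.64 and -0.80 for TRiC, while the myr-SetB arrays spread from -1.53 to 0.13.

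Among the HSP70, HSP90 and HSP110 proteins of cytosol and nucleus all 7 tested members had lower means in both Set-β groups, with medians of -0.53 for wt-SetB and -0.57 for myr-SetB. Hspa8, the constitutive HSP70 with the pair of heat shock elements above, read 12.21, 11.98 and 12.11 on the mCherry arrays, 11.84, 11.66 and 11.54 on the wt-SetB arrays and 10.80, 11.94 and 12.00 on the myr-SetB arrays. The wt-SetB arrays lay below all mCherry arrays, whereas only the first myr-SetB array lay far below them. The differences were -0.42 ± 0.30 (SE, 3 arrays a group) for wt-SetB and -0.52 ± 0.30 for myr-SetB, with adjusted p of 0.48 and 0.447.

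Hsp90ab1, the constitutive HSP90, was lower on every Set-β array. It read 11.36, 11.22 and 11.23 with mCherry, 10.69, 10.67 and 10.86 with wt-SetB and 9.36, 10.83 and 11.20 with myr-SetB. No array of either Set-β group reached the lowest mCherry array. The differences were -0.53 ± 0.41 and -0.80 ± 0.41, and the SD was 0.08 in the mCherry, 0.10 in the wt-SetB and 0.98 in the myr-SetB group. Leaving out the first myr-SetB array took the myr-SetB difference to -0.25.

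The HSP110 genes, nucleotide exchange factors of HSP70, were lower in the wt-SetB group to a like extent. Hspa4 read 10.39, 9.88 and 10.22 with mCherry, 9.78, 9.59 and 9.35 with wt-SetB and 8.78, 9.81 and 10.13 with myr-SetB, a difference of -0.59 ± 0.33 in either comparison. Hsph1 read 8.67, 8.38 and 9.08, then 7.88, 8.24 and 8.0, then 7.75, 8.55 and 8.71, and was the 1 member of this list at an unadjusted p under 0.05 in the wt-SetB comparison, against 8.72% of genes, with a difference of -0.67 ± 0.29 and an adjusted p of 0.447. In the myr-SetB group Hsph1 overlapped with mCherry and differed by -0.38 ± 0.29. Hspa4l read 9.82, 8.69 and 8.87 with mCherry, 9.02, 8.48 and 8.03 with wt-SetB and 7.58, 8.15 and 8.46 with myr-SetB. The wt-SetB arrays overlapped with mCherry here and the myr-SetB arrays did not, the differences being -0.62 ± 0.38 and -1.06 ± 0.38. Without the first myr-SetB array Hspa4l still differed by -0.82. Hspa14, which assists folding at the ribosome, differed by -0.38 ± 0.29 for wt-SetB and by -0.01 ± 0.29 for myr-SetB.

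J proteins of cytosol and nucleus numbered 21, of which 17 were tested, and 16 of the 17 had lower means in each Set-β group. Their median difference was -0.33 for wt-SetB and -0.57 for myr-SetB. Dnaja1, a partner of Hspa8 and a carrier of a heat shock element, read 11.45, 10.67 and 11.28 with mCherry, 10.46, 10.37 and 9.64 with wt-SetB and 9.33, 10.57 and 11.11 with myr-SetB. Every wt-SetB array was below every mCherry array, with a difference of -0.98 ± 0.45, and for myr-SetB the arrays overlapped, with a difference of -0.80 ± 0.45.

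Dnajc5, the cysteine-string protein of synaptic vesicles, did not overlap in either comparison. It read 10.42, 9.72 and 9.76 with mCherry, 9.55, 9.27 and 9.19 with wt-SetB and 8.77, 9.19 and 9.51 with myr-SetB, differences of -0.63 ± 0.26 and -0.81 ± 0.26 with an adjusted p of 0.447 in each. Without the first myr-SetB array the latter was -0.61. Dnajc6, or auxilin, which joins Hspa8 in stripping clathrin from vesicles in neurons, overlapped in both comparisons at -0.33 ± 0.27 and -0.57 ± 0.27. Dnajc7, which binds both HSP70 and HSP90, differed by -0.79 ± 0.36 and -0.88 ± 0.36, with every wt-SetB array below every mCherry array.

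Dnajb4, an HSP40 relative of Dnajb1, had the largest spread of the tested J proteins, reading 8.68, 8.70 and 9.22 with mCherry, 6.93, 8.26 and 8.08 with wt-SetB and 5.73, 8.29 and 9.36 with myr-SetB. The replicates numbered 1 of both Set-β groups were far below the others. Its differences were -1.11 ± 0.80 and -1.07 ± 0.80, and its second cluster gave -1.03 and -0.28. Dnajb1, the classical heat-inducible HSP40, read 7.03, 6.52 and 7.38, then 6.70, 6.76 and 6.60, then 6.76, 6.78 and 6.90, close to the filter, with differences of -0.29 ± 0.22 and -0.16 ± 0.22. Dnajb13, known from the cilia of sperm and airway, was the 1 member of 63 with every wt-SetB array above every mCherry array. Among all tested genes this held for 443 of 10518. Dnajb13 read 7.21, 7.02 and 7.21 with mCherry against 7.29, 7.31 and 7.44 with wt-SetB, a difference of 0.20 ± 0.16.

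TRiC, the cytosolic chaperonin of 8 subunit types in the ring, had lower means for all 8 subunits in both groups, and for all 8 every wt-SetB array lay below every mCherry array, against 34.7% of genes. The 8 differences ran from -0.87 to -0.59 for wt-SetB, with a median of -0.70, and 4 had an unadjusted limma p under 0.05, against 8.72% of genes. For myr-SetB they ran from -0.77 to -0.41, with a median of -0.66, the arrays overlapped for all 8, and 1 had an unadjusted p under 0.05, near the 8.6% of genes. No subunit passed the adjusted test. These shares are over genes of all levels, and all subunits but Cct6a had means above 8.5. From 8.5 to 9.5 the median difference of genes was -0.59 for wt-SetB and -0.61 for myr-SetB. Above 9.5 it was -0.54 and -0.60, and no share was taken over genes of like level.

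Cct2 read 10.40, 10.06 and 10.76 with mCherry, 9.75, 9.59 and 9.29 with wt-SetB and 8.84, 9.85 and 10.26 with myr-SetB, differences of -0.86 ± 0.35 and -0.76 ± 0.35. Cct7 read 10.54, 10.35 and 10.49, then 9.70, 9.89 and 9.60, then 9.13, 9.84 and 10.56, differences of -0.73 ± 0.32 and -0.61 ± 0.32. In both genes the wt-SetB arrays formed a narrow group below the controls and the third myr-SetB array lay within the range of the controls or above it. Cct5 read 10.70, 10.32 and 10.95, then 10.10, 10.10 and 9.99, then 9.09, 10.25 and 10.89, and differed by -0.59 ± 0.40 and -0.58 ± 0.40.
Tcp1, the founding subunit, read 9.64, 9.16 and 10.05, then 9.15, 8.71 and 9.05, then 7.77, 9.10 and 9.66, and differed by -0.65 ± 0.45 and -0.77 ± 0.45. Cct4, whose heat shock element lies after the start, differed by -0.65 ± 0.28 and -0.72 ± 0.28, values named here after they were seen. Under quantile and cyclic loess normalization all 8 subunits kept lower means in both groups, with medians of -0.39 and -0.36 for wt-SetB and of -0.38 and -0.25 for myr-SetB. The wt-SetB count at an unadjusted limma p under 0.05 became 0 and 2, against 3.04% and 4.93% of genes lower. The myr-SetB count became 1 and 0, against 4.44% and 4.86%. Without the first myr-SetB array the myr-SetB median was -0.23.

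**Figure D2:**
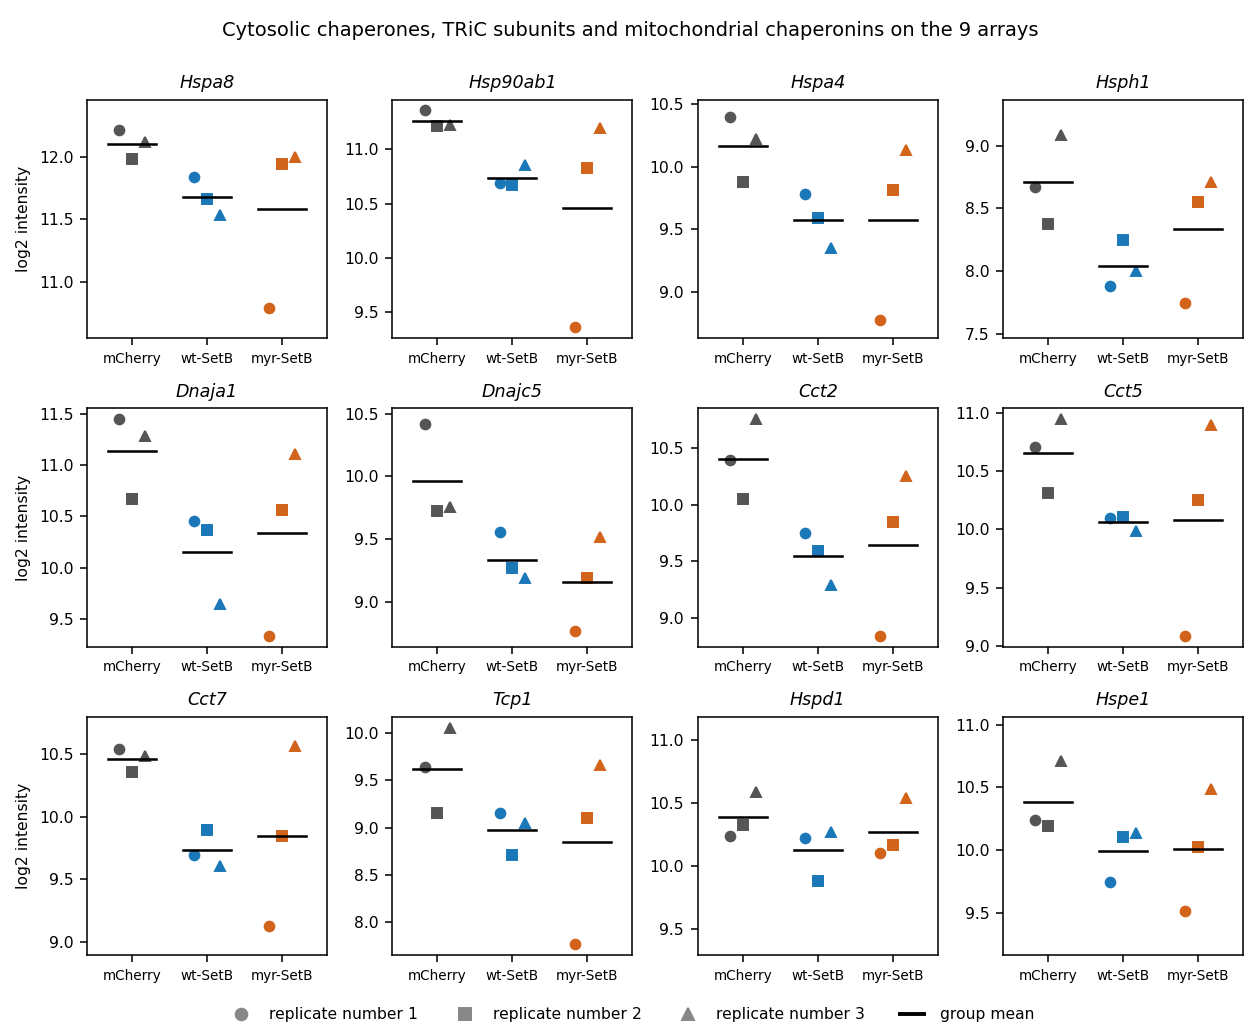
Log2 intensity (y axis, scaled separately for each gene) of 12 members on the 9 arrays by group; symbol shape marks the replicate number and bars are group means. Every wt-SetB array is below every mCherry array for all of these genes except Hspd1, and the first myr-SetB array, the circle, is the lowest of the 9 for 11 of the 12. Over the 63 tested members the same held for 35 and 42, and over all tested genes for 34.7% and 46.6%.

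In the endoplasmic reticulum, 12 of 13 members were tested and all 12 had lower means in both groups, with medians of -0.60 for wt-SetB and -0.63 for myr-SetB. At an unadjusted limma p under 0.05, 3 were lower with wt-SetB and 2 with myr-SetB, against 8.72% and 8.6% of genes. Every array was lower for 8 of the 12 with wt-SetB and for 3 with myr-SetB, against 34.7% and 8.07% of genes. These shares too are over genes of all levels, and none was taken over genes of like level. The median wt-SetB difference of genes was -0.11 from 6.65 to 7.5 and -0.59 from 8.5 to 9.5. Hspa5, or BiP, the HSP70 of this compartment, read 10.60, 11.01 and 11.43 with mCherry, 9.98, 10.51 and 10.29 with wt-SetB and 8.86, 10.58 and 11.21 with myr-SetB. All wt-SetB arrays were below the lowest mCherry array, and the second myr-SetB array lay just below it. The differences were -0.75 ± 0.53 and -0.79 ± 0.53.

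Hsp90b1, or GRP94, with the pair of ER stress elements above, read 10.50, 10.98 and 11.48, then 9.88, 10.59 and 10.59, then 8.95, 10.72 and 11.17. It overlapped in both comparisons, with differences of -0.63 ± 0.54 and -0.71 ± 0.54. Dnajb11, the J protein that delivers clients to Hspa5, read 8.83, 8.98 and 9.79, then 7.79, 8.44 and 8.57, then 7.80, 8.36 and 9.06, and differed by -0.93 ± 0.38 and -0.79 ± 0.38. Its wt-SetB arrays lay below all controls.

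Dnajc3, an inhibitor of the kinase PERK, had the largest wt-SetB difference of the tested members and 1 of the largest spreads. It read 8.58, 8.82 and 10.06 with mCherry, 7.05, 8.54 and 8.29 with wt-SetB and 6.52, 8.56 and 9.54 with myr-SetB, differences of -1.19 ± 0.75 and -0.94 ± 0.75. Dnajb9, an inducible helper of Hspa5, differed by -0.57 ± 0.31 and -0.63 ± 0.31. Dnajc16 had the smallest p of the members for wt-SetB and read 7.98, 7.68 and 7.61, then 7.12, 7.36 and 6.78, then 7.29, 7.02 and 7.5. It did not overlap in either comparison, with differences of -0.67 ± 0.21 and -0.48 ± 0.21, and an adjusted p of 0.447 in each. Under quantile normalization 11 of the 12 kept lower means in each group, with medians of -0.25 and -0.34, and without the first myr-SetB array the myr-SetB median was -0.15. After quantile normalization 1 and 0 of the 12 were lower at an unadjusted limma p under 0.05, against 3.04% and 4.44% of genes.

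By the clusters used, mitochondrial members lay close to the bulk of genes in the wt-SetB comparison. All 9 had lower means in both groups. The medians were -0.26 for wt-SetB and -0.37 for myr-SetB, which is 0.02 above and 0.11 below the median of all genes. The wt-SetB median was the value of Hspd1 itself, whose second cluster stood at -0.93. Without the 3 arrays of replicate number 1 the wt-SetB median lay 0.11 below that of all genes. Every wt-SetB array was lower for 5 of the 9, against 34.7% of genes, and none had an unadjusted limma p under 0.05, against 8.72%. For myr-SetB each count was 1 of 9, near the 8.07% and 8.6% of genes. Under quantile normalization 5 of 9 were lower with wt-SetB, at a median of -0.03, and under cyclic loess 6 of 9, at -0.02.

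Hspd1 and Hspe1, which encode HSP60 and HSP10 from 1 shared promoter, were measured side by side. Hspd1 read 10.24, 10.33 and 10.59 with mCherry, 10.22, 9.88 and 10.27 with wt-SetB and 10.10, 10.17 and 10.54 with myr-SetB, differences of -0.26 ± 0.19 and -0.12 ± 0.19. Its arrays overlapped in both comparisons, and the first myr-SetB array lay close to the others. A second cluster of Hspd1, of lower mean, gave -0.93 and -0.66, so the clusters of this gene disagree in size. The wt-SetB difference of the cluster used was 0.09 under quantile and 0.10 under cyclic loess normalization. Its myr-SetB difference was 0.20 and 0.35 under the same methods. Hspe1 read 10.24, 10.20 and 10.71, then 9.75, 10.10 and 10.14, then 9.52, 10.02 and 10.49, differences of -0.39 ± 0.27 and -0.37 ± 0.27, and the latter was 0.09 under cyclic loess.

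Hspa9, or mortalin, the HSP70 that pulls proteins into the mitochondrion, read 10.38, 10.29 and 10.29, then 10.03, 9.82 and 9.43, then 8.69, 9.97 and 10.57. The mCherry arrays were close to each other and above all wt-SetB arrays, while the myr-SetB arrays ran from below both to above both. The differences were -0.56 ± 0.41 and -0.57 ± 0.41. Dnajc28 was the mitochondrial member with an unadjusted p under 0.05 for myr-SetB, at 7.51, 7.21 and 7.47 against 7.07, 7.13 and 6.68, a difference of -0.44 ± 0.19 with an adjusted p of 0.447, while for wt-SetB it differed by -0.10 ± 0.19.

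Small heat shock proteins hold unfolded protein without ATP, and 4 of 7 were tested. Their medians were -0.21 for wt-SetB and -0.04 for myr-SetB. None of the 4 was free of overlap, against 34.7% and 8.07% of genes lower on every array. None had an unadjusted limma p under 0.05, against 8.72% and 8.6% of genes lower. A list of 4 is too short to set apart from these shares. Hspb6, or HSP20, read 8.60, 7.91 and 8.94 with mCherry and 8.40, 8.40 and 8.39 with wt-SetB, a difference of -0.09 ± 0.27. Hspb8, or HSP22, differed by -0.34 ± 0.21 for wt-SetB and by 0.02 ± 0.21 for myr-SetB, and Hspb2 by -0.34 ± 0.20 and -0.25 ± 0.20.

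Hspb1, or HSP27, varied more with the replicate number than with the group. It read 5.99, 8.31 and 8.85 with mCherry, 6.56, 8.26 and 8.56 with wt-SetB and 6.74, 7.64 and 8.56 with myr-SetB. The array of replicate number 1 was the lowest of its group in all 3 groups, and the group differences were 0.08 ± 0.82 and -0.07 ± 0.82. The pooled SD within groups, 1.20, was the largest of the tested members.

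The array of replicate number 1 was the lowest in each of the 3 groups for 9 of the 63 tested members, against 9.27% of genes, and the highest in each for none, against 2.41%. The 9 were Hspb1, Hspb2, Dnajb4, Dnajc30, Hspa12b and 4 of the 12 of the endoplasmic reticulum, namely Hspa5, Hsp90b1, Dnajb11 and Dnajc3. Those 4 include the 3 members, of the 61 searched, with an ER stress element in the window, and a link between element and pattern was not tested. Outside the members, some genes of other cells had the same pattern. Vim, an intermediate filament of glia and mesenchymal cells, read 8.60, 11.59 and 12.13 with mCherry, 7.84, 11.15 and 11.79 with wt-SetB and 8.39, 11.42 and 12.04 with myr-SetB. Summed over the 7 glial markers on the array, the linear intensity ran from 887 to 4996 with mCherry, from 762 to 4064 with wt-SetB and from 1035 to 4710 with myr-SetB, and over 4 endothelial, mural and fibroblast markers from 424 to 1316, 456 to 964 and 480 to 1103. Outside replicate number 1, Vim alone made up most of each glial sum, and Pdgfrb with Col3a1 most of each sum of the other list. In each of these lists and groups the lowest sum was on the array of replicate number 1. That held for microglia too, but not for every list of other cells. With wt-SetB, arrays 1 to 3 summed to 880, 828 and 809 for amacrine and horizontal markers. For photoreceptor and bipolar markers they summed to 588, 547 and 581. With myr-SetB both of these lists were lowest on the first array. The part of other cells in the pattern of these members was not tested. The labels name no batch.

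**Figure D3:**
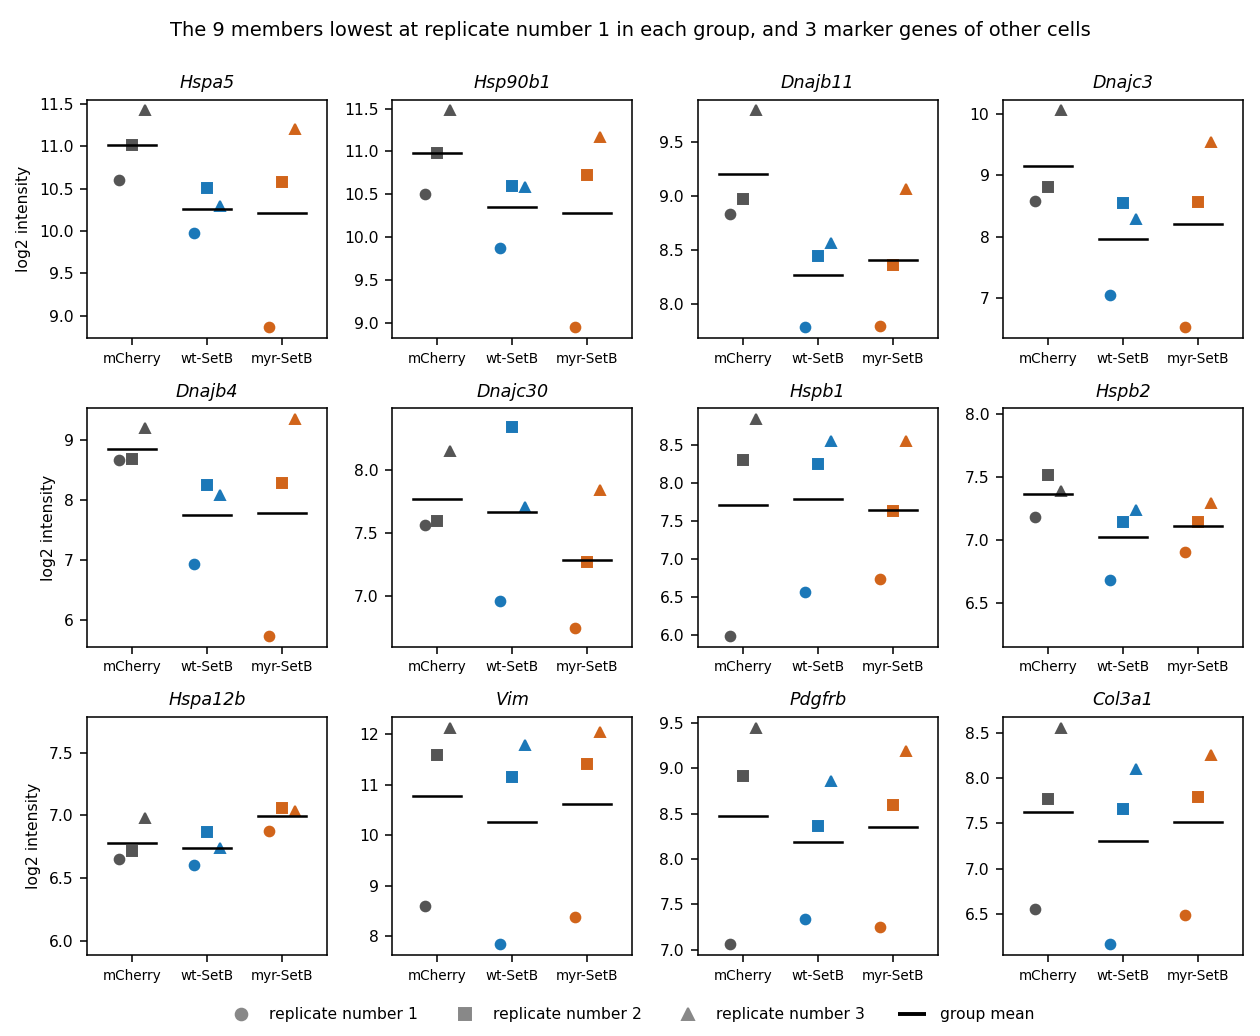
Log2 intensity (y axis, scaled separately for each gene) on the 9 arrays by group for the 9 members whose replicate number 1, the circle, is lowest in each group, and for Vim, Pdgfrb and Col3a1, markers of other cells; bars are group means. Hspb1 stands at 5.99, 6.56 and 6.74 on the arrays of replicate number 1 and between 7.64 and 8.85 on the others.

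Both transcription factors of the heat shock response had lower means with Set-β. Hsf1, the stress-activated factor, whose activity is set mainly at the protein level, read 8.31, 7.68 and 8.06 with mCherry, 7.66, 7.74 and 7.86 with wt-SetB and 7.71, 7.82 and 7.94 with myr-SetB. All groups overlapped, with differences of -0.26 ± 0.19 and -0.19 ± 0.19, and the myr-SetB difference was 0.04 under either normalization. Hsf2, a relative active in development, read 9.77, 8.99 and 9.48, then 8.86, 8.76 and 8.42, then 8.06, 8.58 and 9.23, with differences of -0.74 ± 0.32 and -0.80 ± 0.32 and an adjusted p of 0.447 in each. Its wt-SetB arrays were all below the controls.

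Of 11 genes listed as textbook heat-inducible, 8 were tested. The others were Hspa1a, Hspa1b and Hsp90aa1, which were not analysed and so give no reading of these inducible genes. The 8 had a median difference of -0.37 for wt-SetB and -0.27 for myr-SetB. All tested members stood at -0.50 and -0.52, and all genes at -0.29 and -0.26. Hspa8, Dnaja1, Cct4, Hsph1, Hspd1 and Hspe1, the 6 members with a heat shock element in the window, gave wt-SetB differences of -0.42, -0.98, -0.65, -0.67, -0.26 and -0.39. These lay within the range of all tested members, from -1.19 to 0.20, and a link with the element was not tested.

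The 4 tested members with no compartment assigned had medians of -0.10 and -0.07. Hspbp1, an exchange factor for HSP70, differed by -0.16 ± 0.18 for wt-SetB and -0.28 ± 0.18 for myr-SetB. Dnajc22 was higher by 0.09 ± 0.16 and 0.14 ± 0.16. The distant HSP70 relatives Hspa12a and Hspa12b went apart. Hspa12a read 7.66, 7.28 and 7.30 with mCherry, 7.37, 7.05 and 7.27 with wt-SetB and 6.92, 6.73 and 7.13 with myr-SetB, where the myr-SetB arrays lay below all controls, at -0.48 ± 0.19 and an adjusted p of 0.447. Its second cluster gave 0.14 for myr-SetB, against the direction of the first. Hspa12b differed by -0.04 ± 0.16 for wt-SetB and by 0.21 ± 0.16 for myr-SetB. The 9 members under the filter were Dnajb3, Dnajb7, Dnajb8 and Dnajc27 among cytosolic J proteins, Dnajc14 in the endoplasmic reticulum, the small heat shock proteins Hspb3, Hspb7 and Hspb9, and Hspbap1.

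Differences were small in the lowest band of level and larger above 8.5, among the members as among all genes. In the band from 6.65 to 7.5 the 18 members had a median wt-SetB difference of -0.25, against -0.11 for 5253 genes. From 7.5 to 8.5 the 20 members stood at -0.32, against -0.40 for 3575 genes, and from 8.5 to 9.5 the 12 members at -0.69, against -0.59 for 1196 genes. Above 9.5 the 13 members stood at -0.59, against -0.54 for 494 genes. Within bands, then, the members lay from 0.14 below to 0.08 above genes of like level, less than the 0.21 by which they lay below genes of all levels. For myr-SetB the same bands gave -0.17 against -0.07, -0.43 against -0.38, -0.79 against -0.61 and -0.61 against -0.60.

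**Figure D4:**
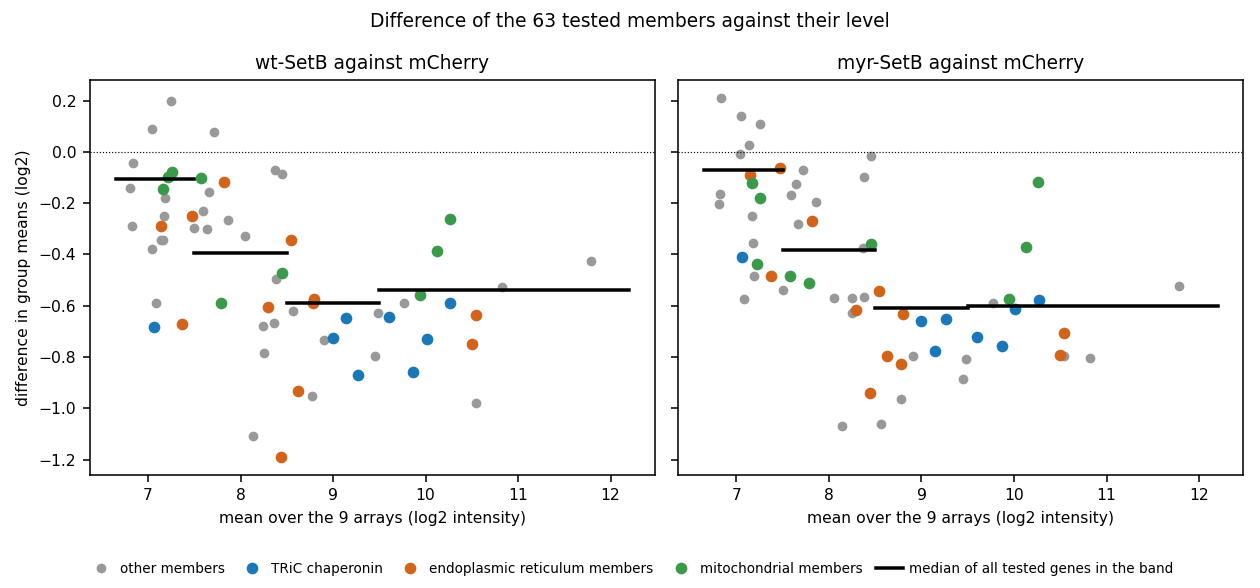
Difference of each of the 63 tested members from mCherry (y axis, log2) against its mean over the 9 arrays (x axis, log2 intensity), for wt-SetB and for myr-SetB; colours mark 3 of the lists and bars the median of all tested genes in each band of level. Above 9.5 the members' median is -0.59 for wt-SetB and the gene median -0.54.

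The scaling of the arrays bears on these values. Intensities spread more widely on mCherry arrays, at 4.29 to 4.54 between the 10th and 90th percentile, than on wt-SetB arrays, at 4.12 to 4.21. Quantile normalization, which gives all arrays 1 distribution, took the median wt-SetB difference of all genes from -0.29 to -0.11 and that of the members from -0.50 to -0.25, and cyclic loess gave -0.12 and -0.22. Relative to all genes the members' median was thus -0.21 as deposited, -0.14 after quantile and -0.11 after loess normalization. The split of lower to higher members went from 60 to 3 as deposited to 52 to 11 after quantile and 53 to 10 after loess normalization. Of the 10518 tested genes, 8113 were lower as deposited, 6851 after quantile and 6872 after loess normalization. For myr-SetB the members' median was -0.30 and -0.22 under the same methods, against -0.12 and -0.09 over all genes. Lower were 51 and 50 of the 63 members, and 6756 and 6599 of the 10518 genes.

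**Figure D5:**
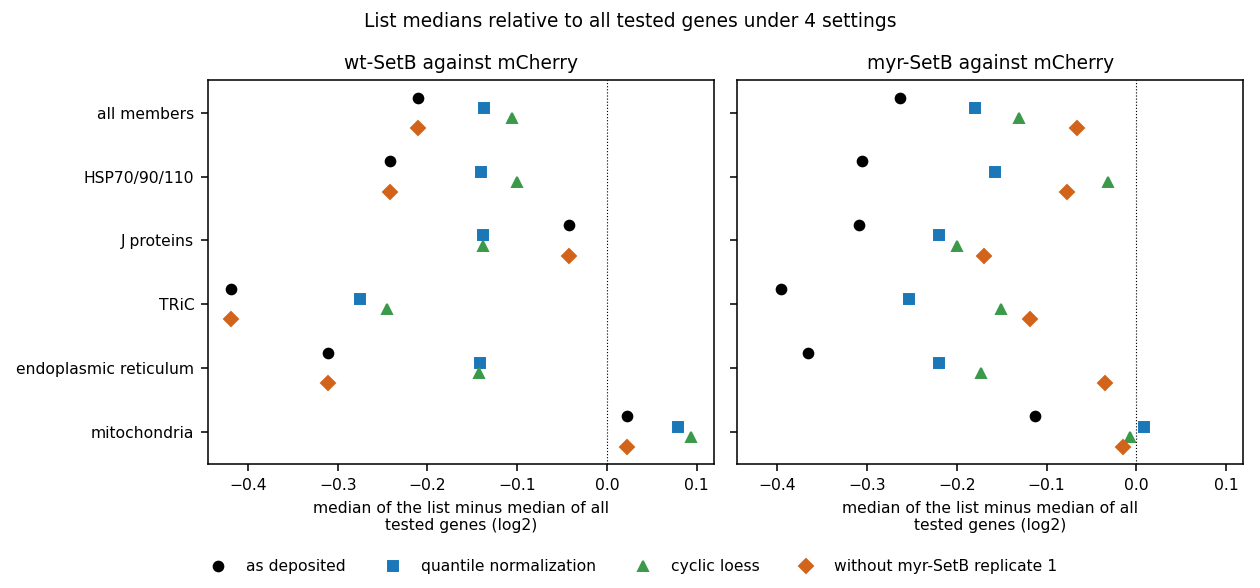
Median difference of each list minus the median of all tested genes (x axis, log2) for wt-SetB and myr-SetB against mCherry, under 4 settings. TRiC has the lowest median relative to all genes for wt-SetB in every setting drawn. The genes are of all levels and are not matched to the level of a list. For myr-SetB the medians without the first myr-SetB array lie nearer to 0 than those as deposited.

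The forms of Set-β were also compared with each other. The median difference of myr-SetB minus wt-SetB over the 63 members was 0.01, the same as over all genes, with 31 members lower. By limma 0 members and 0% of clusters passed the adjusted test, 0 members had an unadjusted p under 0.05, against 0.39% of genes, and the lowest adjusted p of a member was 1. The arrays were free of overlap for 4 members, against 3.9% of genes. Dnajc17 and Dnajc28 were lower on every myr-SetB array and Dnajb1 and Hspa12b higher. Dnajc28 read 7.18, 7.49 and 7.23 with wt-SetB against 7.07, 7.13 and 6.68, a difference of -0.34 ± 0.19, and Hspa12b 6.61, 6.87 and 6.74 against 6.88, 7.06 and 7.03, a difference of 0.25 ± 0.16. Dnajc17, singled out after its values were seen, differed by -0.10 ± 0.19 and Dnajb1 by 0.13 ± 0.22. Without the first myr-SetB array the members' median was 0.29, against 0.14 over all genes. All 8 TRiC subunits were then higher with myr-SetB, at a median of 0.51, as were 7627 of 10518 genes. In that setting 4 members, all higher, had an unadjusted limma p under 0.05, against 3.53% of genes in either direction. A p that misses the threshold does not show that the forms act alike, since the SE of a member's difference ran up to 0.82.

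Partners of these chaperones outside the membership were read from lists of other folding genes. Among cytosolic co-chaperones 17 of 20 were tested, 17 had lower means with wt-SetB and 16 with myr-SetB, at medians of -0.51 and -0.53. At an unadjusted limma p under 0.05, 5 and 2 were lower, against 8.72% and 8.6% of all genes. The list also holds Cryab, a small heat shock protein whose symbol the rule does not match. Cryab read 6.44, 10.65 and 11.22 with mCherry, 6.71, 9.75 and 10.62 with wt-SetB and 6.63, 9.95 and 10.99 with myr-SetB. As with Hspb1, replicate number 1 was lowest in each group. Ptges3, the HSP90 co-chaperone p23, had the smallest p in both comparisons, at -0.97 ± 0.29 and -0.82 ± 0.29 with an adjusted p of 0.447. Prefoldin hands actin and tubulin chains to TRiC, and its 4 tested subunits of 6 all had lower means in both groups, with medians of -0.73 and -0.68. Pfdn1 stood at -0.92 ± 0.29 for wt-SetB and Pfdn2 at -0.72 ± 0.31 for myr-SetB. In each comparison 1 of the 4 was lower at an unadjusted limma p under 0.05, against the same shares of genes.

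For the endoplasmic reticulum, 17 other folding genes were tested, of which 17 and 16 had lower means, with medians of -0.51 and -0.56. At an unadjusted limma p under 0.05, 1 and 3 were lower, against 8.72% and 8.6% of all genes. Ddit3, the stress-induced factor CHOP, had the smallest p in both comparisons at -0.81 ± 0.29 and -0.96 ± 0.29. For mitochondria all 9 other folding and protease genes had lower means in both groups, with medians of -0.52 and -0.51, and Grpel2, an exchange factor of Hspa9, stood at -0.60 ± 0.26 and -0.68 ± 0.26. Of these 9, 1 and 2 were lower at an unadjusted limma p under 0.05, against the same shares of genes. No gene of these lists passed the adjusted test, and the adjusted p of each gene named here was 0.447.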

How the data were processed

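RNA of 9 samples was amplified with the Ovation Pico WTA kit, labelled and hybridized to Affymetrix rat gene arrays. The authors deposited 1 table of linear intensities, which per the labels' protocols and the submitters' processing notes were summarized by RMA in Affymetrix Expression Console and scaled to the median of each sample, and each array's median is 100 in the file. The labels give no versions. Of 36685 transcript clusters, 18511 carry 1 gene symbol, 575 several and 17599 none in the platform annotation; all 78 clusters of the 72 members matched RefSeq. The log2 intensities went into limma 3.58.1 (R 4.3.3) as a mean per group over the 9 arrays, with moderated tests on 6 residual and 2.82 prior degrees of freedom and Benjamini-Hochberg adjustment over the 18343 clusters at or above the median level; the number of arrays limits the precision. The fit was tested on simulated data. The members, the lists and the named members were chosen with earlier results of these data known. Members were named by rule: the 3 smallest p per comparison and direction, the 3 of highest level per compartment, the 4 of largest SD within groups, the 2 transcription factors and a fixed roster. Alternatives were quantile and cyclic loess normalization, no filter and a filter at the 75th percentile, the groups compared alone, array weights, a replicate block and leaving out each array. Whether a replicate number stands for a shared preparation is left unsaid by the labels. The correlations of same-numbered arrays' deviations ran from -0.069 to 0.383 and were not all over 0.1, so the number was kept out of the model and used as a block only in an alternative; pairing is undecided.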

Additional observations from a re-analysis of the deposited data

How the results depend on the processing

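No member passed an adjusted p of 0.05 in any comparison under the alternatives run, except with array weights, where 29 did for myr-SetB against mCherry and 4 for myr-SetB against wt-SetB. Those weights did not converge. The count of members at an unadjusted limma p under 0.05 was the least stable value. For wt-SetB, 11 became 1 under quantile normalization, 5 under cyclic loess, 5 with the filter at the 75th percentile, 6 with the replicate block, 29 with only the groups compared, 35 with array weights and 27 with weights estimated gene by gene, and ran from 1 to 29 as each array was left out. For myr-SetB, 9 became 2 under loess, 5 with the stricter filter, 5 with the replicate block, 2 with the groups alone, 43 and 23 with the 2 kinds of weights, 0 without the 3 arrays of replicate number 1 and 0 after quantile normalization of 8 arrays without the first myr-SetB array, and ran from 1 to 37. For myr-SetB against wt-SetB, 0 became 16 and 3 with the weights, 2 without replicate number 1 and 1 after the 8-array normalization, and ran from 0 to 4. The myr-SetB median of -0.52 was -0.18 without replicate number 1 and -0.0891 after the 8-array normalization, and ran from -0.7662 to -0.1786; relative to all genes, -0.26 became -0.0536 and ran from -0.3563 to -0.0659. The last 3 kinds of setting (weights gene by gene, no replicate number 1, 8 arrays) were chosen after seeing the data. Of 111 pairs of named member and comparison, 49 changed sign in at least 1 setting, whatever the SE. Signs turned where a difference exceeded its SE for 12 of 111 pairs of named member and comparison: Hspd1 for wt-SetB at 0.0854, 0.0994 and 0.085 under quantile, loess and 8-array normalization; for myr-SetB Hsf1 at 0.0417 and 0.038 under quantile and loess and 0.0089 without replicate number 1, and Hspe1 at 0.0913 under loess; and, for myr-SetB after the 8-array normalization, Hspa8 0.0126, Cct5 0.0373, Hsp90b1 0.0727, Hspa5 0.0128, Hspe1 0.0131, Hspa9 0.0856, Dnajb4 0.1088, Dnajc3 0.0447 and Hsph1 0.0718. Hspa4l turned to 0.0579 for myr-SetB against wt-SetB without replicate number 1. The replicate block took no member past the adjusted threshold. The cause of these shifts was not tested.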
